A study of Mus musculus with 7 samples.

Results

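The 10 genes described here are targets of the hypoxia-inducible factors (HIFs) that lie outside glycolysis, together with receptors for mitophagy, the removal of mitochondria by autophagy. They were Bnip3, Bnip3l, Ankrd37, Ndrg1, Car9, Car12, Adm, Higd1a, Mxi1 and Fundc1, and they were taken by symbol from a table of 49382 genes. Each symbol stood on 1 row, and all 10 genes averaged 2 TPM or more across the libraries, the filter on low expression that 12909 genes passed. They also passed it with the hypoxia library left out.

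HIFs are transcription factors made of an oxygen-regulated alpha subunit (HIF1A or EPAS1) and a stable partner (ARNT). When oxygen is present, prolyl hydroxylases of the EGLN family mark the alpha subunit, VHL recognises the mark, and the subunit is degraded. When oxygen is short the alpha subunit persists and the pair binds hypoxia response elements, whose core is the sequence ACGTG or GCGTG. Besides glycolytic enzymes, its targets act on mitochondria, cell pH and secretion. BNIP3, BNIP3L (also called NIX) and FUNDC1 sit in the outer mitochondrial membrane and bind LC3-family proteins, which brings the mitochondrion to the autophagosome.

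Wild type mouse embryonic fibroblasts (MEFs) were primary cells grown from minced embryos after the head and fetal liver were removed. By the sample records the embryos were of day 13.5 to 14.4 and the cells were used at passages 3 to 7. The methods of the study give a slightly later last embryo day and first passage. They also state that MEFs were sorted to exclude contaminating macrophages. The 7 libraries comprised 1 from control cells and 1 from each of 6 conditions, all in cells of the same genotype. Hypoxia was 0.1% oxygen for 10 hours, endoplasmic reticulum (ER) stress was 1 μM thapsigargin, a blocker of the ER calcium pump, for 10 hours, and glucose or glutamine was left out for 10 hours. Oxidative stress was a 3-hour exposure to 10 μM sodium arsenite, which reacts with thiols, and osmotic stress a 3-hour exposure to 100 mM NaCl, so both were shorter than the other 4. With 1 library per condition no difference could be set against a spread between replicates, and no test or p-value is given.

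Values are TPM, a length-corrected share of each library scaled to a total of 1000000 transcripts, so levels of different genes can be compared and the sequencing depth is unknown. Changes are differences of log2(TPM + 1) from the single control library, which all 6 comparisons share, and this scale understates changes of low genes. A gene is said to have risen or fallen where that difference passed 2-fold. All 10 fibroblast markers passed the filter, with summed levels of 8766 TPM in ER stress to 16304 TPM in hypoxia and 14168 TPM in the control. Sums stayed at 6.53 to 14.6 TPM for macrophage markers, 4.09 to 9.07 TPM for endothelial, 4.04 to 12.0 TPM for epithelial, 13.8 to 36.2 TPM for muscle and 0 to 1.01 TPM for erythroid markers. Markers under 1 TPM in every library were 3 of 6 for macrophages (Ptprc among them), 1 of 5 for endothelium (Cdh5), 4 of 6 for epithelium (Epcam among them), 4 of 5 for muscle (Myod1 among them) and 5 of 5 for erythroid cells. Among those above it in all 7 libraries were Cd68 (5.26 to 9.77 TPM), Kdr (1.92 to 4.23), Krt18 (3.57 to 10.6) and Des (13.6 to 35.9). In such bulk libraries, fewer cells of a type and less RNA per cell cannot be told apart. In ER stress 9 of 9 genes of the unfolded protein response rose (median log2 change 3.44), the most being Sdf2l1 (31.1 to 598 TPM), and in oxidative stress 6 of 7 NRF2 targets rose (median 1.63), the most being Hmox1 (266 to 6055 TPM). In osmotic stress 3 of 5 genes of the NFAT5 list rose (median 1.96), the most being Akr1b3 (90.5 to 575 TPM).

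RefSeq promoter windows on GRCm38.p6, which run from 250 bases before a start site to 50 after it, were matched for 8 of the 10 genes, with 3 windows for Mxi1 and 10 windows in all. Bnip3l and Ndrg1 were not matched. The windows of 5 genes are shown, from Bnip3, which rose most in hypoxia, to Car12, which did not pass 2-fold. Those of Ankrd37, Mxi1 and Fundc1 are not shown, and Fundc1 changed less in hypoxia than Car12. Capitals mark each ACGTG or GCGTG and its reverse complement, CACGT or CACGC. The window of Bnip3 is chr7:138909457-138909756 on the minus strand, that of Higd1a is chr9:121857747-121858046 on the minus strand, and that of Car9 is chr4:43506776-43507075 on the plus strand. Those of Adm and Car12 are chr7:110627407-110627706 and chr9:66713436-66713735, both on the plus strand.
Bnip3: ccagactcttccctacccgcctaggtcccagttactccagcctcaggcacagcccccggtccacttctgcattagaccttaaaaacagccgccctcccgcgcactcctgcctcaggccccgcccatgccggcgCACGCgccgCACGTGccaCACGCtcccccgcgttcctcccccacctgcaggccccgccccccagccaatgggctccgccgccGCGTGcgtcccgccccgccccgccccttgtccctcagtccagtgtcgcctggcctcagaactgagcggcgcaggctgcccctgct
Higd1a: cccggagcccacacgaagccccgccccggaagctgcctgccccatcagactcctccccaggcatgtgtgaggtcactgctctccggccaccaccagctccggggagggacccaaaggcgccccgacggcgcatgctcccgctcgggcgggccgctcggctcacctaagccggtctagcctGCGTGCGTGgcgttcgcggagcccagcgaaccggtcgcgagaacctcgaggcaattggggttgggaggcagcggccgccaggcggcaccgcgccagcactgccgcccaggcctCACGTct
Car9: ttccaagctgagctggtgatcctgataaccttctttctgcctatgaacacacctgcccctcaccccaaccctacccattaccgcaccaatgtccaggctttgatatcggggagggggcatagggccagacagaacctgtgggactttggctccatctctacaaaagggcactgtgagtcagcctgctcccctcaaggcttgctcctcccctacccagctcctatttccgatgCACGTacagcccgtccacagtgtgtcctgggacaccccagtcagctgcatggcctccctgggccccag
Adm: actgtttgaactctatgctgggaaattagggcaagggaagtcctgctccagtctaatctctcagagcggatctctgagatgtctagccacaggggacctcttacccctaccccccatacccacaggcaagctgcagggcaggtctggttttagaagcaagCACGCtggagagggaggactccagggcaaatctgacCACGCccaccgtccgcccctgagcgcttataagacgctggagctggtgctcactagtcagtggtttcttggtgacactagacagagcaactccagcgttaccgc
Car12: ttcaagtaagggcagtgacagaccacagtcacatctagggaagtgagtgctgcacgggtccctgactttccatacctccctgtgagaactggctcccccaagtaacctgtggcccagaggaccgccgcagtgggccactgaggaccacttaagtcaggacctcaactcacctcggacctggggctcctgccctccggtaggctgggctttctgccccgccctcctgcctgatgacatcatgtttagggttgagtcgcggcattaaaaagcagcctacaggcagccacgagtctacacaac

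The Bnip3 window held 5 matches, of which a pair are the overlapping strands of the palindrome CACGTG, 108 bases before the start site, where the motif CACGTG is also counted as ACGTG. The Higd1a window held 3 matches, that of Car9 held 1, just before the start site, and that of Adm held 2, both GCGTG. The Car12 window held 0 matches, as did that of Fundc1, while the Ankrd37 window held 4. Over both strands, ACGTG was found in 6 of the 10 windows, compared with 25.7% of the windows of all genes that passed the filter. GCGTG was found in 4 of 10 windows, compared with 51.3%, and either motif in 7 of 10, compared with 62.8%. CACGTG stood in 1 of 10 windows, compared with 10.2%. These matches describe the letters of the windows. Whether they are bound, or have a part in the levels below, was not tested. The start sites of the Ankrd37 and Fundc1 windows lie 564 and 322 bases inside the RefSeq gene, so these windows do not cover its outermost 5′ end. In the GENCODE genes, whose locations are given below, the start sites of Ankrd37, Fundc1 and Higd1a lie 5857, 318 and 566 bases inside. The start site of the Car12 window lies 1390 bases inside the RefSeq gene and at the 5′ end of the GENCODE gene. Those of the 3 Mxi1 windows lie 378, 19285 and 19567 bases inside the RefSeq gene, and the last pair are 2 of the 6 windows with ACGTG.

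In hypoxia 8 of the 10 genes rose more than 2-fold and 0 fell, where 3.57% of all genes tested rose and 2.64% fell. All 10 lay above their control level. The median log2 change of the 10 genes was 2.29, beside -0.05 over all genes. The 8 were Bnip3 (log2 change 4.85), Ankrd37 (3.77), Ndrg1 (3.56), Higd1a (2.59), Mxi1 (2.31), Car9 (2.28), Bnip3l (1.86) and Adm (1.02), while Car12 (0.80) and Fundc1 (0.31) stayed within 2-fold. Summed over the 10 genes, the level was 399 TPM in the control, or 0.0399% of the library, and 2434 TPM in hypoxia, or 0.243%. The sums of the other 5 treated libraries lay between 346 and 507 TPM. Of the 10 genes, 9 had their highest level in hypoxia, as did 15.7% of all genes.

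**Figure D1:**
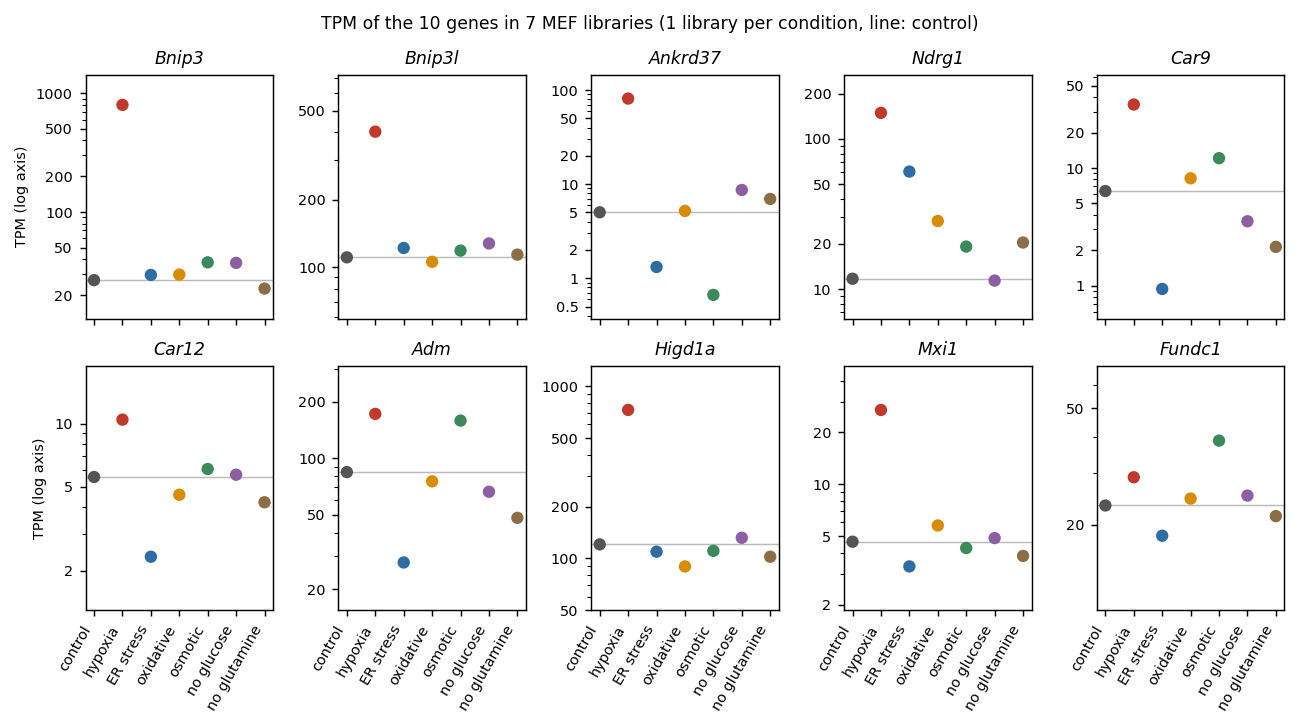
TPM of each of the 10 genes (y axis, log scale, its range set for each gene) in the 7 libraries (x axis), with 1 point per library and a grey line at the control level. Hypoxia is the highest point for 9 genes, and osmotic stress is the highest for Fundc1 (38.7 TPM).

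Bnip3 (ENSMUSG00000078566, chr7:138890836-138909519, minus strand) encodes a mitophagy receptor of the BCL2-interacting family. Its level was 26.7 TPM in the control, 797 in hypoxia, 29.6 in ER stress, 29.8 in oxidative stress, 37.7 in osmotic stress, 37.4 in glucose depletion and 22.7 TPM in glutamine depletion. The hypoxia library thus stood alone, at 29.8 times the control and 21.1 times the highest other library, that of osmotic stress. The other 6 libraries spanned log2 changes of -0.23 to 0.48. By size of its rise in hypoxia, Bnip3 ranked 21 of the 12909 genes.

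Bnip3l (ENSMUSG00000022051, chr14:66985239-67008877, minus strand), which encodes the related receptor NIX, known for clearing mitochondria from maturing red cells, had a higher level than Bnip3 to begin with. It was measured at 111 TPM in the control, 403 in hypoxia, 122 in ER stress, 106 in oxidative stress, 119 in osmotic stress, 128 in glucose depletion and 114 TPM in glutamine depletion. Hypoxia was 3.64 times the control and 3.16 times the next library, glucose depletion. Outside hypoxia Bnip3l was the steadiest of the 10 genes, with no log2 change larger than 0.20 in size.

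Fundc1 (ENSMUSG00000025040, chrX:17556564-17572325, minus strand) encodes the receptor whose phosphorylation state is known to change in hypoxia. Its level was 23.2 TPM in the control, 29.0 in hypoxia, 18.3 in ER stress, 24.5 in oxidative stress, 38.7 in osmotic stress, 25.1 in glucose depletion and 21.4 TPM in glutamine depletion. Osmotic stress was the highest library (log2 change 0.71) and hypoxia the next (0.31), and no condition passed 2-fold. By its change in hypoxia Fundc1 ranked 2055 of 12909 genes.

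The 3 receptor genes together made 161 TPM in the control and 1229 TPM in hypoxia, and their make-up differed. In the control Bnip3l was 68.9% of this sum, Bnip3 16.6% and Fundc1 14.5%. In hypoxia Bnip3 was 64.9%, Bnip3l 32.8% and Fundc1 2.36%. Bnip3l exceeded Bnip3 by 4.14 times in the control and by 3.14 to 5.01 times in the 5 other libraries without hypoxia, whereas in hypoxia Bnip3 exceeded Bnip3l by 1.98 times. The order of Bnip3 and Bnip3l was thus turned in hypoxia and in no other library, while Fundc1 (19.9%) and Bnip3 (19.4%) were close in osmotic stress.

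**Figure D2:**
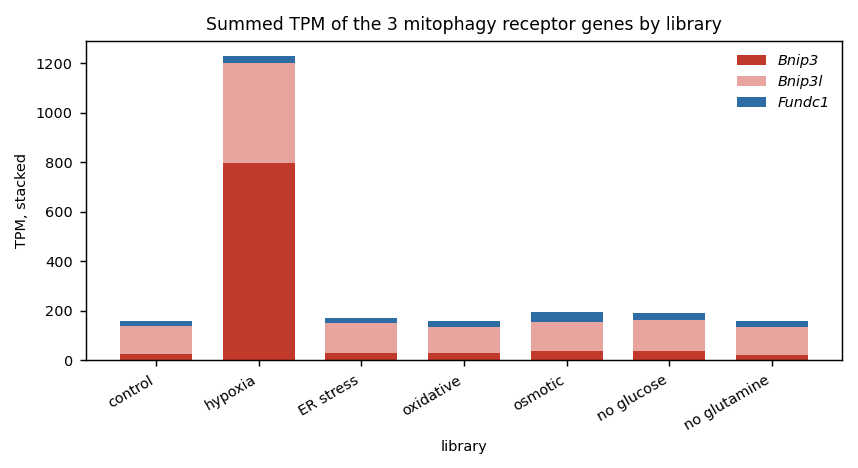
Summed TPM (y axis, linear from 0) of Bnip3, Bnip3l and Fundc1, stacked in 1 bar per library (x axis). The hypoxia bar reaches 1229 TPM and is mostly Bnip3, while Bnip3l is the largest segment of the other 6 bars.

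Of 19 other mitophagy genes that passed the filter, which cover the PINK1 and parkin pathway, further receptors, adaptors and LC3-family genes, 0 rose and 0 fell in hypoxia, with a median log2 change of 0.00. The largest differences in hypoxia, both within 2-fold, were those of Sqstm1, which encodes the adaptor p62 (365 and 523 TPM, log2 change 0.52), and Bcl2l13, a receptor (22.7 and 13.7 TPM, -0.69). Sqstm1 rose to 1507 TPM in ER stress (log2 change 2.04) and to 801 TPM in oxidative stress (1.13). Mul1, a mitochondrial ubiquitin ligase, fell in osmotic stress from 16.7 to 3.94 TPM (-1.84). These were the only changes past 2-fold of the group in the 6 conditions.

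Higd1a (ENSMUSG00000038412, chr9:121848563-121858362, minus strand) encodes a small inner mitochondrial membrane protein that associates with the respiratory chain. Its level was 121 TPM in the control, 729 in hypoxia, 109 in ER stress, 89.8 in oxidative stress, 111 in osmotic stress, 132 in glucose depletion and 102 TPM in glutamine depletion. Hypoxia was 6.05 times the control and 5.54 times the highest other library, and the log2 changes of the other conditions lay between -0.42 and 0.13. The related gene Higd2a had a log2 change of 0.02 in hypoxia.

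Car9 (ENSMUSG00000028463, chr4:43506966-43513729, plus strand) and Car12 (ENSMUSG00000032373, chr9:66713686-66766845, plus strand) encode membrane carbonic anhydrases, which hydrate carbon dioxide at the cell surface and so act on pH. The level of Car9 was 6.38 TPM in the control, 34.8 in hypoxia, 0.935 in ER stress, 8.18 in oxidative stress, 12.1 in osmotic stress, 3.53 in glucose depletion and 2.13 TPM in glutamine depletion. It rose in hypoxia and fell in ER stress (log2 change -1.93) and glutamine depletion (-1.24), so the 7 libraries were spread widely around the control. Car12 was measured at 5.58 TPM in the control, 10.5 in hypoxia, 2.33 in ER stress, 4.59 in oxidative stress, 6.08 in osmotic stress, 5.72 in glucose depletion and 4.23 TPM in glutamine depletion. Hypoxia was the highest and ER stress the lowest library for both genes, and for Car12 neither passed 2-fold, with ER stress just inside it (log2 change -0.98). The level of Car9 was 1.14 times that of Car12 in the control, 3.33 times in hypoxia and 0.402 times in ER stress. Of 9 other carbonic anhydrases and pH transporters that passed the filter, 0 rose and 0 fell in hypoxia, with Car6 at the top (4.45 and 9.37 TPM, log2 change 0.93) and Car5b at the bottom (5.90 and 4.61 TPM, -0.30). In ER stress 2 of these 9 rose and 2 fell, and 1 rose in glutamine depletion.

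Adm (ENSMUSG00000030790, chr7:110627661-110629820, plus strand) encodes adrenomedullin, a secreted peptide that widens blood vessels. Its level was 84.4 TPM in the control, 172 in hypoxia, 27.8 in ER stress, 75.3 in oxidative stress, 159 in osmotic stress, 66.3 in glucose depletion and 48.1 TPM in glutamine depletion. Hypoxia and osmotic stress were thus both high, at a ratio of 1.09, and ER stress was lowest (log2 change -1.57). The rise in hypoxia was just past 2-fold (1.02) and that in osmotic stress just inside it (0.90). The median gene of the osmotic stress library lay at -0.12, and relative to it the Adm difference was 1.02. Of 5 genes for adrenomedullin receptors and clearance, Ramp2, a receptor-modifying subunit, fell in hypoxia from 5.13 to 1.87 TPM (-1.10), and 0 rose. In ER stress 1 of the 5 rose and 2 fell, among them Ackr3, a scavenger receptor (17.4 to 3.61 TPM). At a pseudocount of 5 TPM, 0 of the 5 fell in hypoxia, and in ER stress 0 rose and 1 fell.

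Mxi1 (ENSMUSG00000025025, chr19:53310518-53375810, plus strand) encodes a partner of MAX that opposes MYC at shared DNA sites. Its level was 4.64 TPM in the control, 27.0 in hypoxia, 3.33 in ER stress, 5.76 in oxidative stress, 4.26 in osmotic stress, 4.87 in glucose depletion and 3.83 TPM in glutamine depletion. Hypoxia was 5.82 times the control and 4.69 times the highest other library, and the other libraries had log2 changes between -0.38 and 0.26. Of 6 other genes of the MYC and MAX network that passed the filter, 0 rose and 0 fell in hypoxia, where the extremes were Mnt (log2 change 0.46) and Myc (-0.14). Myc rose in ER stress from 56.8 to 265 TPM (log2 change 2.20) and in glutamine depletion (1.33), and 2 genes of the network fell in osmotic stress.

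Ndrg1 (ENSMUSG00000005125, chr15:66929318-66969640, minus strand) encodes a cytoplasmic protein named as N-myc downstream regulated. Its level was 11.7 TPM in the control, 149 in hypoxia, 60.6 in ER stress, 28.4 in oxidative stress, 19.2 in osmotic stress, 11.4 in glucose depletion and 20.4 TPM in glutamine depletion. It rose in 3 conditions, namely hypoxia, ER stress (log2 change 2.28) and oxidative stress (1.21), and was the only one of the 10 genes to rise more than 2-fold outside hypoxia. Hypoxia was still 2.46 times the ER stress library, the next highest. Of 10 ATF4 targets, genes of the integrated stress response, 7 rose in ER stress (median log2 change 2.49), 3 in oxidative stress and 2 each in hypoxia, osmotic stress and glutamine depletion, and 4 fell in osmotic stress. The most in hypoxia was Ddit4 (35.4 to 123 TPM, log2 change 1.77). In ER stress Ddit4 had the smallest change of the 10 ATF4 targets (52.5 TPM, 0.55), within 2-fold. Whether this response had a part in the level of Ndrg1 was not tested.

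Ankrd37 (ENSMUSG00000050914, chr8:45996902-46005707, minus strand) encodes a small ankyrin repeat protein. Its level was 5.02 TPM in the control, 81.3 in hypoxia, 1.32 in ER stress, 5.19 in oxidative stress, 0.665 in osmotic stress, 8.67 in glucose depletion and 6.97 TPM in glutamine depletion. Hypoxia was 16.2 times the control and 9.37 times the next library, glucose depletion. The gene fell in osmotic stress (log2 change -1.86) and in ER stress (-1.38), the libraries in which its level was lowest.

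**Figure D3:**
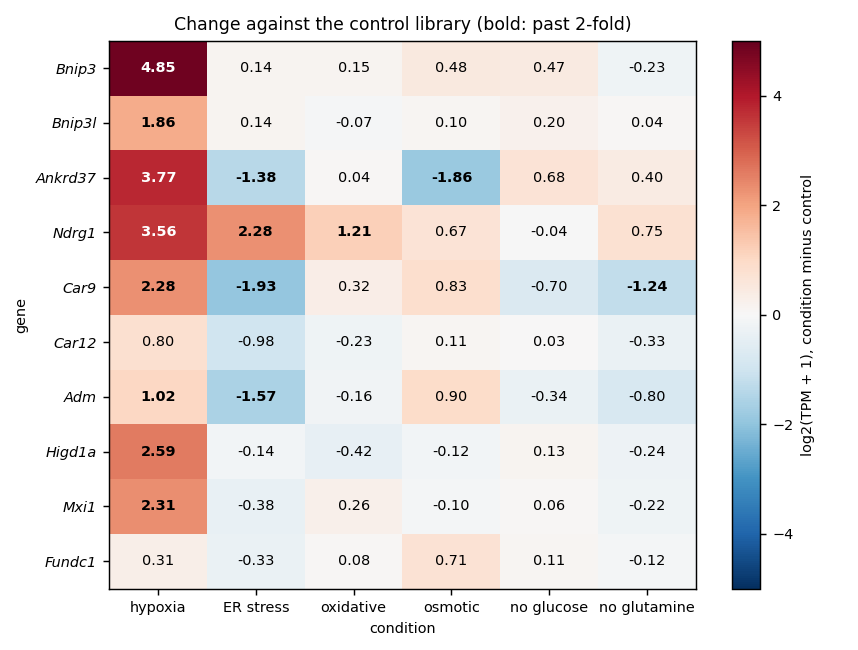
Difference of log2(TPM + 1) from the control library (colour and printed value) for the 10 genes (rows) in the 6 conditions (columns), with differences past 2-fold in bold. The hypoxia column holds 8 rises, and the other 5 columns hold 2 rises, both of Ndrg1, and 5 falls.

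Outside hypoxia the 10 genes had 2 rises and 5 falls past 2-fold, spread over 4 of the other 5 conditions. In ER stress 1 rose (Ndrg1) and 3 fell (Ankrd37, Car9 and Adm), where 8.60% of all genes rose and 11.0% fell, and their median log2 change was -0.35 beside 0.00 over all genes. In oxidative stress 1 rose, where 3.94% of all genes rose, and 0 fell, where 4.85% fell. In osmotic stress 0 rose and 1 fell (Ankrd37), where 3.08% rose and 8.76% fell, although the median of the 10 genes was 0.30 beside -0.12 over all genes. In glucose depletion 0 rose and 0 fell, where 1.83% rose and 2.41% fell. In glutamine depletion 0 rose and 1 fell (Car9), where 3.21% rose and 3.21% fell. The sum of fibroblast markers was lowest in the ER stress library, where 3 of the 10 markers fell and 0 rose, and its part in the lower values there was not tested.

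Of the 10 genes 4, namely Ankrd37, Ndrg1, Car9 and Adm, passed 2-fold in at least 1 condition other than hypoxia, a share of 40% beside 33.0% of all genes, which is near the background. The range over the 6 libraries other than hypoxia had a median of 1.07 log2 units for the 10 genes and 0.97 over all genes. The other 6 genes were Bnip3, Bnip3l, Higd1a and Mxi1, which rose in hypoxia alone, and Car12 and Fundc1, which passed 2-fold in no condition at a pseudocount of 1 TPM. Car12 in ER stress passed it at a pseudocount of 0.1 TPM (log2 change -1.23). Ankrd37, Car9 and Adm both rose in hypoxia and fell in another condition, 3 of 10 genes, whereas 2.73% of all genes rose in at least 1 of the 6 conditions and fell in another. At a pseudocount of 5 TPM this count was 0 of 10, beside 0.806% of all genes. Because 8 of the 10 genes but 3.57% of all genes rose in hypoxia, these shares do not compare like sets. The share that fell elsewhere among all genes raised in hypoxia was not computed. Hypoxia exceeded each of the other 6 libraries by more than 2-fold for 7 of the 10 genes and for 1.08% of all genes. Those 7 were the genes that rose, without Adm.

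Among related genes, 19 of 20 glycolytic HIF targets rose in hypoxia and 0 fell (median log2 change 2.05). Slc16a3, the lactate exporter, rose most (13.9 to 391 TPM, log2 change 4.72), close to the value of Bnip3, and Pfkfb4 was measured at 5.75 and 5.52 TPM. This list had 2 rises and 1 fall in ER stress, 1 rise in oxidative stress, 1 rise and 1 fall in osmotic stress, and 1 rise each in glucose and glutamine depletion. Of 8 HIF subunits and oxygen sensors that passed the filter, 2 rose in hypoxia and 0 fell, with a median of 0.12. These were the prolyl hydroxylases Egln3 (2.44 to 94.7 TPM, log2 change 4.80) and Egln1 (24.4 to 170 TPM, 2.75), both known as HIF targets themselves. Vhl lay just inside 2-fold in hypoxia (24.9 and 50.4 TPM, 0.99), and at a pseudocount of 0.1 TPM 3 genes of this list rose. The control and hypoxia levels of Hif1a were 100 and 108 TPM (log2 change 0.10), and its protein, which is what oxygen regulates, was not measured. Of 11 paralogs of the 10 genes that passed the filter, 2 rose in hypoxia, namely Ndrg2 (5.10 to 40.4 TPM) and Adm2 (8.38 to 42.9 TPM), and 0 fell. Fundc2 (log2 change 0.34), Bnip1 (0.28) and Bnip2 (-0.09), which share a name or family with the receptors, stayed within 2-fold.

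**Figure D4:**
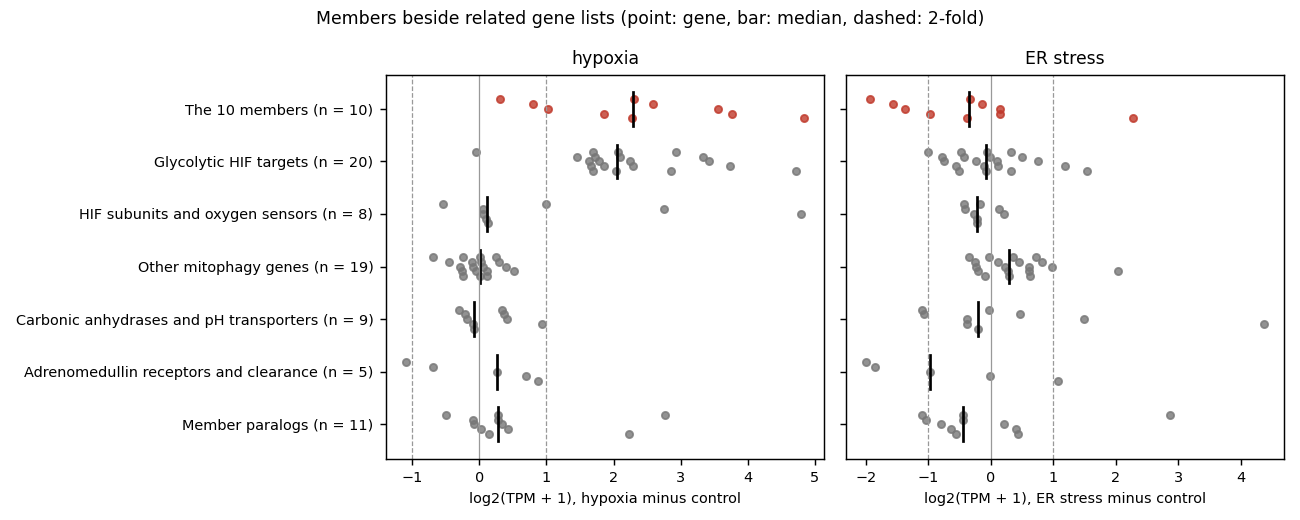
Difference of log2(TPM + 1) from the control (x axis) in hypoxia and in ER stress for the 10 genes (red) and 6 related lists (grey), with 1 point per gene, a bar at the median and dashed lines at 2-fold. In hypoxia the 10 genes and the glycolytic targets have medians of 2.29 and 2.05, while the medians of the other lists lie inside 2-fold.

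The genes whose 6 log2 changes lay nearest to the median profile of the 10 genes, by root mean square distance, were Pgm2 (0.153 log2 units), Pfkp (0.195), P4ha1 (0.208), P4ha2 (0.220) and Plod2 (0.242). Pgm2 and Pfkp encode enzymes of sugar metabolism, and P4ha1, P4ha2 and Plod2 encode collagen-modifying hydroxylases of the ER. For the single genes, the nearest were Aldoa to Bnip3l (0.124), Egln1 to Higd1a (0.140), Pgm2 to Mxi1 (0.200), Lrp5 to Car12 (0.107) and Cdk14 to Fundc1 (0.113). Adm was nearest to Raver1 (0.374), Ankrd37 to Ak4 (0.610) and Car9 to Mpp2 (0.622), so these profiles had no close neighbour. The nearest gene to Bnip3 was Gm23872 (0.329), a microRNA gene that was listed at 0 without hypoxia and at 22.0 TPM with it. That to Ndrg1 was Gm12868 (0.603), an antisense gene listed at 0 in control cells and at 7.65 TPM in hypoxia. Neither gene would have passed the filter with the hypoxia library left out, so both matches rest on that library.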

How the data were processed

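RNA-seq of mouse embryonic fibroblasts was analysed in 7 libraries, mapped to conditions by their labels. Per the submitters' processing notes the authors used kallisto 0.43.1 on GRCm38, with cDNA transcripts of Ensembl release 90 per the methods, and the deposited TPM are sums per gene over its transcripts. TPM keeps no read counts, so depth is unknown and no counting interval can be given.

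The 10 genes and all gene lists were chosen with earlier results of these data known. From the deposited TPM, log2(TPM + 1) minus the control value was computed for the 12909 genes whose TPM averaged 2 or more, and 2-fold was the threshold. Percentages of all genes refer to these genes. Named genes were the 10 genes, the largest rise and fall in hypoxia per list (for stress lists, in their own treatment), the 5 nearest profiles, and paralogs. Other list genes named in the report were chosen after their values were seen. Locations came from GENCODE M21, where 132 genes that passed the filter were unmatched, and promoters from RefSeq. Scripts were tested on simulated data. Alternatives were other pseudocounts, filters, thresholds and references, centring, and removal of mitochondrially encoded genes. Calculations were run in Python 3.11.15 with pandas 2.3.3 and numpy 2.4.6, and plots were drawn with matplotlib 3.10.9.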

Additional observations from a re-analysis of the deposited data

Results flagged for a closer look

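In 5 cases a gene moved past 2-fold in opposite directions in hypoxia and in another condition. With 1 library per condition these differences were not tested, and both sides share the control library. Ankrd37 stood at 81.3 TPM in hypoxia and 1.32 TPM in ER stress, a difference of 5.15 in log2(TPM + 1), and at 0.665 TPM in osmotic stress, a difference of 5.63. Car9 stood at 34.8 TPM in hypoxia and 0.935 TPM in ER stress, a difference of 4.21, and at 2.13 TPM in glutamine depletion, a difference of 3.51. Adm stood at 172 TPM in hypoxia and 27.8 TPM in ER stress, a difference of 2.59. At a pseudocount of 5 TPM none of the 5 cases remained, with log2 changes of -0.67 and -0.82 for Ankrd37 in ER and osmotic stress, -0.94 and -0.67 for Car9 in ER stress and glutamine depletion, and 0.99 for Adm in hypoxia.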

How the results depend on the processing

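The count of the 10 genes that rose in hypoxia lay between 6 and 9 over all settings tried, the lowest with a mean of at least 10 TPM, where 7 of them were left, and their median log2 change there between 1.81 and 2.59 over the planned settings. At a pseudocount of 5 TPM, 1 gene fell in ER stress, 0 rose in oxidative stress, 0 fell in osmotic stress and 0 fell in glutamine depletion. With a mean of at least 10 TPM, 0 fell in glutamine depletion. After subtracting the median of all genes, 1 rose in osmotic stress (Adm, 1.02). At 1.5-fold, 4 rose in osmotic stress, 1 rose and 1 fell in glucose depletion, and 1 rose and 2 fell in glutamine depletion. At 3-fold, 1 fell in ER stress, 0 rose in oxidative stress and 0 fell in glutamine depletion. With the median of the other 5 treated libraries as reference, 2 rose in osmotic stress and 2 fell in glucose depletion. Of 532 changes of single genes under these alternatives, 499 kept their side of the threshold. Of those past 2-fold in the main setting 0 changed sign, while sign changes of smaller differences were not counted. Counts of the related lists were less stable, and 652 of 763 were equal to the main count or within 1.5-fold of it. At a pseudocount of 5 TPM, 0 paralogs and 0 other carbonic anhydrases and pH transporters fell in ER stress. Of the latter, 0 rose in glutamine depletion there. Car12 in ER stress passed 2-fold at a pseudocount of 0.1 TPM (-1.23), without mitochondrially encoded genes (-1.01) and against the other treated libraries (-1.01). Against the highest of the other 6 libraries, a setting chosen after seeing the data, the hypoxia value of Adm was 0.12. With protein-coding genes alone as background, also chosen after seeing the data, 1.93% of genes rose in hypoxia and 1.02% fell. No paired analysis was possible because each condition had 1 library. The unknown depth limits the low values of Ankrd37 and Car9.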

Other observations

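Some relatives of the 10 genes also moved in ER stress. Car6, a secreted carbonic anhydrase, rose in ER stress from 4.45 to 113 TPM (log2 change 4.38). Adm2, which encodes intermedin, a peptide related to adrenomedullin, rose in ER stress from 8.38 to 67.8 TPM (2.87), where Adm itself fell, and in hypoxia to 42.9 TPM (2.22). Ndrg2 rose in hypoxia (2.76) and fell in ER stress (-1.04), where Ndrg1 rose. At a pseudocount of 5 TPM this fall of Ndrg2 was inside 2-fold. These genes were named after their values were seen, and no difference between conditions was tested.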
